A study of Homo sapiens with 12 samples.

Results

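HCT116 cells kept in ICG-001 for 96 h were compared with HCT116 cells kept in the solvent DMSO for the same 96 h. HCT116 is a human colorectal cancer cell line, and ICG-001 is a small molecule that binds CBP (CREBBP) and blocks its contact with β-catenin (CTNNB1). The signal of each gene in the ICG-001 96 h column was divided by its signal in the DMSO 96 h column, and genes above the detection limit in at least 1 of these columns were used. That left 17046 of 34687 gene names. The study as a whole treated HCT116 cells and PANC1 cells, a pancreatic cancer line, with DMSO, with ICG-001 or with C646, collected them at 12 h and at 96 h, and read RNA on Illumina expression arrays. Both groups compared here were HCT116 cultures in the same medium with serum and antibiotics, and the labels name no genetic change. One group received 10 uM ICG-001 and the other 0.05% DMSO. The 96-h cultures were sparser than the 12-h cultures when drug or solvent was added, were passaged before they filled the dish and had medium and drug renewed each day. Each column is the authors' mean of 2 arrays from independent cultures. The values of the separate arrays were not used here, so the sizes given have no error and no test. A gene is said to rise or fall when its ratio was at least 1.5-fold, and other genes are given by their values.

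CBP and its close relative p300 (EP300) are co-activators that transcription factors recruit to acetylate histones near the genes they control. In WNT signaling the recruiting complex is β-catenin bound to a TCF/LEF factor, and in colon cancer cells such as HCT116 this complex is active all the time. Other factors use CBP too, among them the sterol regulator SREBP, the hypoxia factor HIF-1, the stress factor ATF4, NF-kB and p53, so the genes of each of these pathways were read as groups.

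Across the 12 columns 44.5% to 47.7% of gene names lay above the limit, with 45.4% in ICG-001 96 h and 44.7% in DMSO 96 h. The limit was a signal of 143.5 in the ICG-001 96 h column and 143.6 in the DMSO 96 h column, just above the median signals of 139.6 and 139.1. The columns named HCT116 carried epithelial markers. EPCAM, CDH1, KRT8, KRT18, KRT19 and the intestinal factor CDX2 were above the limit, as 6 of 12 colon markers. KRT20, VIL1, CDH17, LGALS4, CEACAM5 and CDX1 were at background. None of 5 endothelial markers, 1 of 7 fibroblast markers (COL1A1) and 3 of 7 immune markers (HLA-DRA, CD79A and LYZ) were above the limit, and none of the markers of these 4 lists rose or fell. In RNA from a whole culture, fewer cells of a kind and less RNA per cell cannot be told apart.

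Of the 17046 genes, 10.3% changed at least 1.5-fold. The directions were even, with 5.15% higher (878 genes) and 5.13% lower (874 genes). The counts given for each gene list below are to be read beside these shares. By 2-fold or more 190 genes rose and 178 fell. By 4-fold or more 23 rose and 5 fell. The signals of 65.9% of genes lay within 1.2-fold of each other, and the log2 ratios had a median of 0.005 with 5th and 95th percentiles of -0.593 and 0.592. The genes nearest the threshold were MTHFD1L (log2 ratio 0.585, inside) and MRPS25 (0.584, outside) on the upper side, and EEF2 (-0.585, inside) and TBC1D4 (-0.585, outside) on the lower side. Among names at background in both columns the log2 ratios had an SD of 0.072. Of the higher genes 30 were under the limit in DMSO 96 h, and of the lower genes 15 were under the limit in ICG-001 96 h. A dim gene has only a lower bound for its fold, and the bound was under 1.5 for 4 of those 30 and 6 of those 15.

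**Figure D1:**
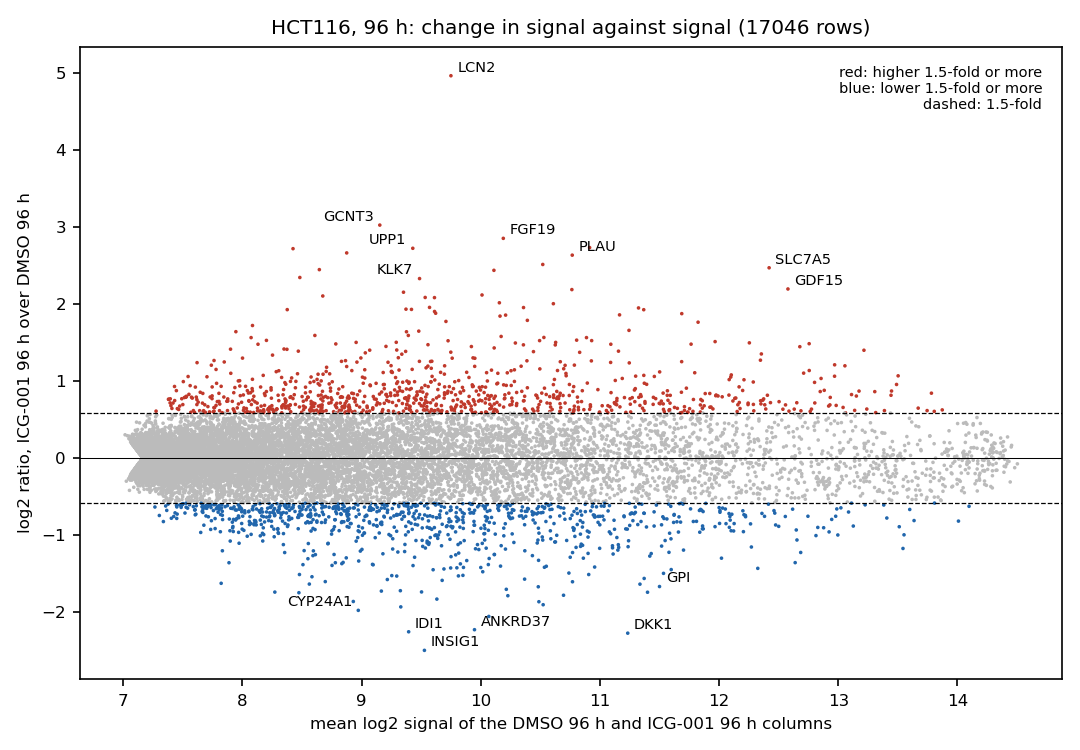
Change of each of 17046 genes in HCT116 cells after 96 h of ICG-001 (vertical axis, log2 of the ICG-001 96 h signal over the DMSO 96 h signal) against its mean log2 signal in these columns (horizontal axis). Red points are the 878 genes that rose and blue points the 874 that fell by at least 1.5-fold (dashed lines), and LCN2 stands above all others.

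The largest rises were in secreted proteins, proteases and stress genes. LCN2, which encodes the iron-binding mucosal defence protein lipocalin 2, read 151 in DMSO 12 h, 154 in DMSO 96 h, 578 in ICG-001 12 h and 4802 in ICG-001 96 h. It went from just above background to 31.1 times the DMSO 96 h signal (log2 ratio 4.96), and the rise over the matching DMSO column was 1.94 on the log2 scale at 12 h. In C646 at 96 h it stayed at 184. GCNT3, an enzyme that builds the branched sugar chains of mucins, read 199.7 in DMSO and 1622 in ICG-001 at 96 h (8.12-fold). UPP1, which splits uridine, read 269 and 1771, and unlike LCN2 and GCNT3 it had been brighter at 12 h, at 3665. UPP1 thus followed another course than LCN2 and GCNT3. PLAU, the urokinase that activates plasminogen, rose from 700.3 to 4341. The kallikrein proteases KLK6 (475 to 2570.4) and KLK7 (320.1 to 1607) rose 5.41-fold and 5.02-fold. Among other large rises, named after their values were seen, IL20RB, a receptor chain for interleukins of the IL-20 group, went from 159 to 805. FERMT1, which links integrins to actin in epithelium, rose from 360.1 to 1526, and RBCK1, part of the linear ubiquitin ligase, from 380.3 to 1609. PABPC1L, a poly(A)-binding protein, rose 5.70-fold. The stress gene NIBAN1 was read under 2 older names in the table, FAM129A and C1orf24, at 6.33-fold and 4.29-fold, and these are 2 readings of 1 gene.

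The largest falls included sterol genes, hypoxia targets and genes of none of the lists. INSIG1, the ER protein that holds SREBP back when sterols are plentiful, read 1109 and 1753 in DMSO at 12 and 96 h and 413 and 311 in ICG-001, 5.64-fold lower at 96 h. DKK1, a secreted WNT antagonist that is itself a WNT target, read 5294 in DMSO and 1095 in ICG-001 at 96 h, 4.83-fold lower. The sterol enzymes IDI1 (4.77-fold lower) and SQLE (3.56-fold lower) were in this group. So was CYP24A1, which inactivates vitamin D (997 against 253). ANKRD37, a HIF target, and SLC2A3, the glucose transporter GLUT3, fell 4.68-fold and 3.82-fold. Other large falls were in ARID5B, a chromatin protein (3.64-fold), TMSB15A, an actin-binding thymosin (3.45-fold), SSFA2 (now ITPRID2, 3.74-fold) and WDR68 (now DCAF7, 3.44-fold). Named after their values were seen, KITLG, the ligand of the receptor KIT, fell from 4940.4 to 1477, and MAN1A1, a mannosidase of the Golgi, and UCA1, a long non-coding RNA, fell 3.31-fold and 3.34-fold. FAM162A, a mitochondrial protein, fell 3.26-fold. A name for the pseudogene RPL7P59, whose sequence is close to that of RPL7, fell 4.16-fold, and the signals of near-identical copies cannot be told apart on an array.

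Cells make cholesterol from acetyl-CoA through mevalonate, isoprenoids and squalene, and the SREBP factors switch these enzymes on together when sterols run low. The early enzymes fell as a group. Of 10 enzymes from acetyl-CoA to squalene, 7 fell and 0 rose, with a median log2 ratio of -1.05 against 0.005 for all genes and 5.13% of all genes lower. HMGCS1, which makes HMG-CoA, read 1676 in DMSO 96 h and 626 in ICG-001 96 h. IDI1, which isomerises the basic isoprenoid unit, showed the largest fall of the pathway, from 1471 to 308. FDFT1, the squalene synthase, read 4242 and 1796, and ACAT2, which condenses acetyl-CoA, 880.3 and 338. FDPS fell 1.82-fold and MVD 1.77-fold. All 7 of the early enzymes that fell were also at least 1.5-fold below each of the 4 HCT116 columns without ICG-001, which are DMSO and C646 at 12 and 96 h. Of all 874 genes that fell, 146 did so (0.857% of all genes). At 12 h the median of these enzymes was already -0.82. Of the 11 enzymes that turn squalene into cholesterol 5 fell, with a median of -0.35 at 96 h. Their median was -0.73 at 12 h and -0.77 for ICG-001 96 h over DMSO 12 h, beside -0.87 for the early enzymes, so the lists were further apart against DMSO 96 h than in these comparisons. The late enzymes that fell were SQLE, which oxidises squalene (1497 to 421), DHCR7, which makes cholesterol from its last precursor (1027 to 344), SC4MOL (now MSMO1, 1565 to 545), LSS and CYP51A1. CYP51A1 was not lower at 12 h, with a log2 ratio of 0.25.

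Sterol uptake and sensing was mixed. Of 16 members 4 fell and none rose, where 5.13% of all genes fell. Besides INSIG1, the falls included the HDL receptor SCARB1 (1.90-fold) and INSIG2 (1.51-fold). The regulators themselves moved little. SREBF2, the SREBP of cholesterol genes, had a log2 ratio of -0.09, and SREBF1, the SREBP of fatty acid genes, -0.14. The median of the list was -0.09, and 0.02 against DMSO 12 h. Of 12 genes on the list of fatty acid synthesis and desaturation 4 fell. They were LPIN1, a phosphatidate phosphatase (2.25-fold), the desaturase FADS1 (1.88-fold), the synthase FASN (10296 to 5499) and ACLY, which supplies acetyl-CoA (1.75-fold). The median was -0.44. Fatty acid oxidation did not share this, with a median of 0.03 over 12 genes and a single rise, in HADHB (1.54-fold).

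ATF4 is made when amino acids are short or the ER is stressed, and it turns on genes for amino acid synthesis, uptake and tRNA charging together with stress regulators such as DDIT3 and TRIB3. Most genes of this group rose. Of 18 regulators and early effectors 14 rose and 0 fell, with a median log2 ratio of 0.97, where 5.15% of all genes rose. ATF4 itself read 3789 in DMSO 96 h and 6207 in ICG-001 96 h (1.64-fold). DDIT3, the stress factor CHOP, read 405 in DMSO 96 h, 2373 in ICG-001 12 h and 1512 in ICG-001 96 h. TRIB3, a pseudokinase that ATF4 and CHOP induce, went from 749 to 4968. In DMSO TRIB3 had been higher at 12 h (1381) than at 96 h. FGF19, a gut hormone that restrains bile acid synthesis, rose from 435 to 3135, and GDF15, a stress cytokine, from 2859 to 13074. The factor ATF5 rose 4.44-fold, against a DMSO column that went from 594 at 12 h to 310.1 at 96 h, so that against DMSO 12 h its log2 ratio was 1.21 and not 2.15. The hormone STC2 rose 3.15-fold. NUPR1, a stress-induced chromatin protein, and SESN2, a sensor of leucine, were under the limit in DMSO 96 h and at least 1.82-fold and 1.69-fold higher. Of the 14 genes that rose 10 were also above all 4 HCT116 columns without ICG-001 by 1.5-fold. Of all 878 genes that rose, 285 were (1.67% of all genes).

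Many genes of amino acid synthesis and transport rose as well. Of 12 synthesis enzymes 7 rose and 0 fell (median 0.71, and 0.42 against DMSO 12 h). PSAT1, an aminotransferase of serine synthesis, read 816 in DMSO and 3709.5 in ICG-001 at 96 h. ASNS, the asparagine synthetase, read 2371 and 6755, and GPT2, which makes alanine, 747 and 2100.3. PHGDH, which opens the serine route, rose 2.31-fold, MTHFD2 1.87-fold and PSPH 1.71-fold. Of 13 transporters 6 rose (median 0.47, and 0.29 against DMSO 12 h). SLC7A5 and SLC3A2, the chains of the LAT1 transporter for large neutral amino acids, rose from 2329.8 to 12886 and from 568 to 2294. In DMSO SLC7A5 was lower at 96 h than at 12 h (4137), and against DMSO 12 h its log2 ratio was 1.64 in place of 2.47. The arginine transporter SLC7A1 and the glutamine transporter SLC38A1 rose 2.89-fold and 2.77-fold, and the neutral amino acid transporter SLC1A5 1.88-fold. The glycine transporter SLC6A9 was under the limit in DMSO 96 h and at least 1.67-fold higher.

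The cytosolic and mitochondrial tRNA synthetase lists differed in their medians. Of 19 cytosolic enzymes, which load amino acids onto tRNAs, 8 rose and 0 fell (median 0.39, and 0.27 against DMSO 12 h). WARS (now WARS1) read 496 in DMSO 96 h and 2147 in ICG-001 96 h, and AARS (now AARS1) 4668 and 10256. MARS rose 2.59-fold and GARS 2.02-fold, but these are older names that more than 1 current gene has carried. Leaving such names out, the median was 0.34. Of 17 mitochondrial synthetases 0 rose, and SARS2 alone fell (1.54-fold). Their median was -0.09, and -0.20 against DMSO 12 h.

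A C/EBP-ATF response element joins a C/EBP site to an ATF site, and TGATGNAA, on either strand, was taken as its core. The 250 bases upstream of the annotated start were read from RefSeq promoters (build GRCh38.p14). Of 35 genes of the ATF4 and amino acid lists that rose, 29 had a promoter in the table and 8 of them (27.6%) held the core, as did 9 of the 49 measured list members with a promoter (18.4%), against 3.89% of all 27305 genes with a promoter. Counted by windows, which are more numerous because a gene can have several starts, 16.7% and 3.14% held it. The next 3 stretches are shown because they belong to the genes that rose most among those holding the core, with the core in capitals, 5′ to 3′ on the strand of the gene. CEBPG (2.95-fold) held the core too and is not shown, since another of its starts lies upstream.
ASNS: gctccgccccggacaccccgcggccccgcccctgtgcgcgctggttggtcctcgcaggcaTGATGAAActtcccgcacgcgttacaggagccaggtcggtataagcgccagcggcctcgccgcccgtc
CHAC1: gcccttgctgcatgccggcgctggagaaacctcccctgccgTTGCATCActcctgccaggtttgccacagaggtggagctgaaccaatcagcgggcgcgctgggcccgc
AARS1: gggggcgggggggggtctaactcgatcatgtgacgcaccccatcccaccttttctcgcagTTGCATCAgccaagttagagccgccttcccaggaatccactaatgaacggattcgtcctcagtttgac
The ASNS stretch is chr7:97872409-97872536 on the minus strand, the CHAC1 stretch chr15:40953221-40953329 on the plus strand and the AARS1 stretch chr16:70289626-70289753 on the minus strand. The core starts 68 bases before 1 start of ASNS, 209 before the start of CHAC1 and 187 before that of AARS1. In CHAC1 and AARS1 it lies in the reverse direction. ASNS has 2 annotated starts, and only 1 of them held the core in its window. CHAC1, which degrades glutathione, read 147 in DMSO 96 h and 327 in ICG-001 96 h.

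For the sterol lists the letters TCACNCCAC, a sterol regulatory element, were searched on both strands in the same windows. Of 20 sterol and fatty acid genes that fell 13 had a promoter in the table and 0 held these letters in it, against 1.09% of all genes. The single holder among the 39 measured list members with a promoter was SREBF2 (log2 ratio -0.09), shown for that reason with the element in capitals.
SREBF2: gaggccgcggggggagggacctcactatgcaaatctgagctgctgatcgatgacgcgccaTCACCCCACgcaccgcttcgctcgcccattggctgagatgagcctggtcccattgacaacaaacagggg
It is chr22:41832912-41833040 on the plus strand, with the element starting 133 bases before the start. A match is a description of letters, and no match says only that the letters are not in this window.

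**Figure D2:**
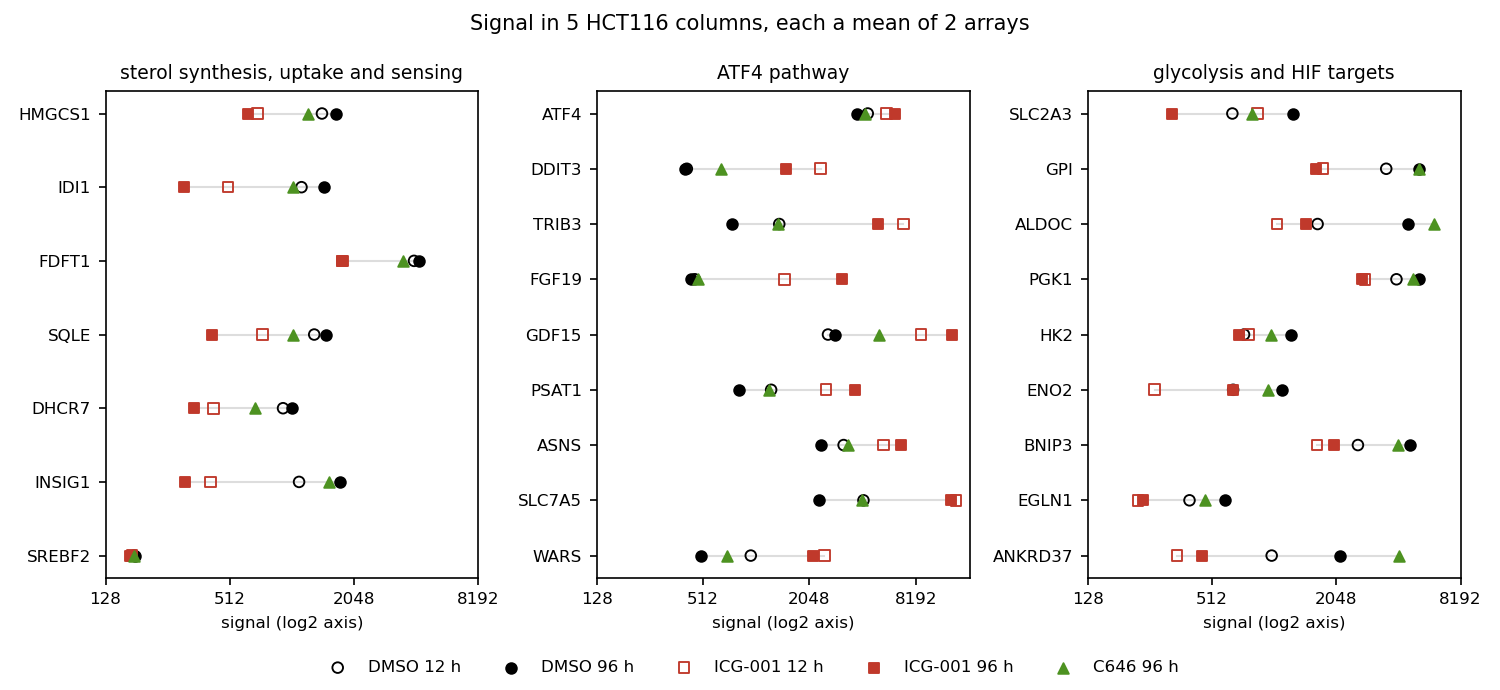
Signal (horizontal axes, log2 scale) of sterol, ATF4 pathway and glycolysis or HIF target genes in 5 HCT116 columns, each the authors' mean of 2 arrays, so no error bar can be drawn. In the ICG-001 columns (squares) the sterol genes other than SREBF2 are dimmest and the ATF4 pathway genes brightest of the 5 columns, while ALDOC, HK2 and ENO2 read about as low in DMSO 12 h (open circles) as in ICG-001 96 h, and higher in DMSO 96 h (filled circles).

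Other stress programs moved in part. Of 19 ER chaperones and sensors of unfolded proteins 7 rose and 1 fell (median 0.18). ATF6, an ER stress sensor, read 838 in DMSO and 1851 in ICG-001 at 96 h, HSPA5, the ER chaperone BiP, 734 and 1618, and XBP1, the factor made active by IRE1, 1745 and 3643. HERPUD1 rose 1.93-fold and CRELD2 1.63-fold, while the lectin chaperone CALR fell 1.57-fold. The metallothionein list, with 7 metallothionein genes and their regulator MTF1 above the limit, had a median of 1.01 (0.56 against DMSO 12 h), and 5 rose: MT1X (1723 to 6309), MT1G (331 to 872), MT1E, MT2A and MT1A. These genes bind zinc and copper, and their sequences are so alike that probes may share signal. Of 17 antioxidant genes 4 rose and 3 fell. FTH1, the ferritin heavy chain, rose from 1356 to 5148 and SRXN1, a sulfiredoxin, from 950.1 to 2626, while the efflux pump ABCC2 fell from 736 to 288. TKT and PGD of the pentose phosphate pathway fell from 5571 to 3379.8 and from 2579 to 1716, and NQO1 rose 1.68-fold. SQSTM1, the autophagy receptor p62, rose from 3972 to 10806. CTSL1 (now CTSL) rose 1.87-fold and MAP1LC3B 1.64-fold, and no other of 21 autophagy and lysosome genes changed.

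Cytosolic heat shock chaperones had a median of 0.01 at 96 h, -0.70 at 12 h and -0.22 for ICG-001 96 h over DMSO 12 h. Of 12 genes 1 rose and 1 fell at 96 h. HSP90AB1, an HSP90, fell from 9939 to 5321. HSPA8, the constant HSP70 of the cytosol, rose from 6654 to 11770, but it read 10606 in DMSO 12 h, so the ICG-001 96 h column differed from that one by only 0.15 on the log2 scale.

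Some cell death and p53 genes moved. Over all genes 5.15% rose and 5.13% fell. CDKN1A, the CDK inhibitor p21, read 1864 and 1968 in DMSO at 12 and 96 h, 3890 and 4269 in ICG-001 and 5072 in C646 96 h. It was 2.17-fold higher at 96 h. Of 18 other p53 targets 3 rose, namely the growth arrest gene GADD45A (2.38-fold), the death receptor TNFRSF10B (1.90-fold) and the pore former BAX (1.54-fold), and the cyclin CCNG1 fell 2.10-fold. The list median was 0.09. Of 13 BCL2 family genes BAX and PMAIP1, the death promoter NOXA (1.54-fold), rose and 0 fell.

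Genes of glycolysis were lower in ICG-001, but their reference had moved. Of 22 glycolytic genes 14 fell and 1 rose (median -0.76), where 5.13% of all genes fell. GPI, which isomerises glucose phosphate, read 3573 and 5163 in DMSO at 12 and 96 h and 1767 and 1625 in ICG-001. ALDOC, a brain-type aldolase, read 1662, 4559, 1058 and 1466 in the same order. The ICG-001 96 h signal of ALDOC was thus 3.11-fold below DMSO 96 h but near DMSO 12 h. PGAM1 (2.22-fold), PKM2 (now PKM, 1.98-fold) and TPI1 (1.95-fold) of the lower part of the pathway fell. SLC2A3 read 642 and 1256 in DMSO and 329 in ICG-001 96 h. SLC2A1, the glucose transporter GLUT1, went the other way, from 4031 to 6745. The list median of DMSO 96 h over DMSO 12 h was 0.39, and against DMSO 12 h the ICG-001 96 h median was -0.18 in place of -0.76. The 12-h comparison, which shares no column with that at 96 h, gave a median of -0.50.

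HIF targets outside glycolysis had the same shape. Of 18 targets 9 fell and VEGFA, the angiogenic growth factor, alone rose (median -0.58), where 5.13% of all genes fell. ANKRD37 read 996 and 2137 in DMSO, 347 and 456 in ICG-001 and 4124 in C646 96 h. JMJD1A (now KDM3A), a histone demethylase, fell from 1361 to 502. EGLN1, the hydroxylase that marks HIF for decay, went from 589 to 238, and BNIP3, a mitophagy receptor, from 4677 to 2003. BNIP3L fell 1.69-fold. CA9 was under the limit in ICG-001 96 h, with a fall of at least 1.43-fold. HIF1A itself had a log2 ratio of -0.29. The median of these targets in DMSO 96 h over DMSO 12 h was 0.63, and against DMSO 12 h the ICG-001 96 h median was -0.01. Time, density and passage differ between the DMSO columns and cannot be told apart. At 12 h, against the DMSO column of that time, their median was -0.37. The hypoxia response core ACGTG was found in 16 of 21 promoters of glycolysis and HIF genes that fell (76.2%), in 23 of 35 of all measured members of these lists (65.7%) and in 21.7% of all genes, and this core is also part of CACGTG, the E-box that MYC and SREBP can bind.

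Many of the lower genes were brighter in the 96-h control than in the 12-h control. Of the 874 lower genes 665 were brighter in the later DMSO column, with a median difference of 0.22 on the log2 scale against 0.015 over all genes above the limit. Of the 878 higher genes 511 were dimmer in DMSO 96 h, with a median of -0.065. These values share the DMSO 96 h column with the comparison that chose the genes and are a description. Taken against DMSO 12 h, 475 of the lower genes were still at least 1.5-fold lower and 597 of the higher genes still higher, with medians of -0.63 and 0.77. Outside all 4 HCT116 columns without ICG-001 by 1.5-fold lay 285 genes above (1.67%) and 146 below (0.857%).

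Mitotic genes shifted down. Of 54 G2/M genes 17 fell and 1 rose (CKS1B, 1.76-fold), and 51 had a ratio below 1 (median -0.42, and -0.18 at 12 h). Over all genes 5.13% fell and 5.15% rose. BUB1, a kinase of the spindle checkpoint, read 1528 in DMSO 96 h and 529 in ICG-001 96 h. NCAPD2, a condensin subunit, read 1409.6 and 524, ANLN, which scaffolds the cleavage furrow, 1515 and 566, and the kinase TTK 1497 and 595. HMMR, a spindle protein, fell from 1528 to 671 and the centrosome kinase NEK2 from 1517 to 704. Among mitotic kinases AURKA fell 2.09-fold and BUB1B 1.92-fold. The cytokinesis motor KIF20A fell from 1419 to 472, and KIF4A and CENPE fell from 419 to 244 and from 493 to 309. All 12 measured kinesins of mitosis had a ratio below 1. At the kinetochore C6orf173 (now CENPW), NUF2, SPC25 and INCENP fell 2.18-fold, 2.03-fold, 1.68-fold and 1.56-fold. Of the G2/M genes that fell 12 were 1.5-fold below all 4 HCT116 columns without ICG-001, as were 146 of all 874 genes that fell. The lists of kinases, kinesins and kinetochore genes share 7, 5 and 7 members with the G2/M list. The cell cycle homology region TTTGAA, a sequence of late cell cycle promoters, was present in 9 of 15 promoters of the mitotic genes that fell (60%), in 31 of 59 of all measured members of the mitotic lists (52.5%) and in 16.1% of all genes.

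S phase genes had a median slightly above DMSO 96 h. Of 42 genes 2 rose and 2 fell (median 0.15). Licensing genes, which load the MCM helicase, had a median of 0.12, with MCM10 (316 to 528) and CDT1 (644 to 1031) higher. Genes of the replication fork and nucleotide synthesis had a median of 0.15, with GINS3 and RFC4 higher (1.62-fold and 1.54-fold) and TK1, POLD1 and TYMS lower (1.70-fold, 1.52-fold and 1.51-fold). At 12 h, in columns not shared with the 96-h comparison, the medians were below 0, at -0.43 for S phase, -0.31 for licensing and -0.39 for the fork. The control had also moved. MCM10 read 838 in DMSO 12 h and CDT1 1225. The S phase median of DMSO 96 h over DMSO 12 h was -0.75, and against DMSO 12 h the ICG-001 96 h medians were -0.63 for S phase, -0.67 for licensing and -0.60 for the fork. The mitotic medians kept their sign on that scale, at -0.69 for G2/M and -0.67 for kinesins. In the E2F family E2F7, a repressor, rose 1.57-fold. The E2F core TTTNGCGC was present in 16 of 60 promoters of the S phase, licensing and fork genes above the limit (26.7%) and in 1.84% of all genes.

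Cyclins moved in both directions. CCND1, the cyclin D of the G1 phase, read 4164 and 4574 in DMSO and 8282 and 9808 in ICG-001, 2.14-fold higher at 96 h. CCNE2 rose from 182 to 349, still under its DMSO 12 h signal of 476. The mitotic cyclins CCNB2 (2129.8 to 1107) and CCNA2 (1645 to 1023) fell. Of the CDK inhibitors CDKN1C fell 1.63-fold. Of 10 histone genes above the limit 4 fell, namely HIST1H2BK, HIST1H2BD, HIST1H1C and HIST1H2AC (now H2BC12, H2BC5, H1-2 and H2AC6), with log2 ratios of -1.22 to -0.62. All of these had been above DMSO at 12 h, with log2 ratios of 0.20 to 0.57. HIST1H4C (now H4C3) rose 1.52-fold. Of 18 homologous recombination and Fanconi genes 16 were above DMSO 96 h, but the only rises were FANCI (1.62-fold) and FANCG (1.53-fold). Their median was 0.19 over DMSO 96 h and -0.15 over DMSO 12 h, with -0.46 between the DMSO columns.

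**Figure D3:**
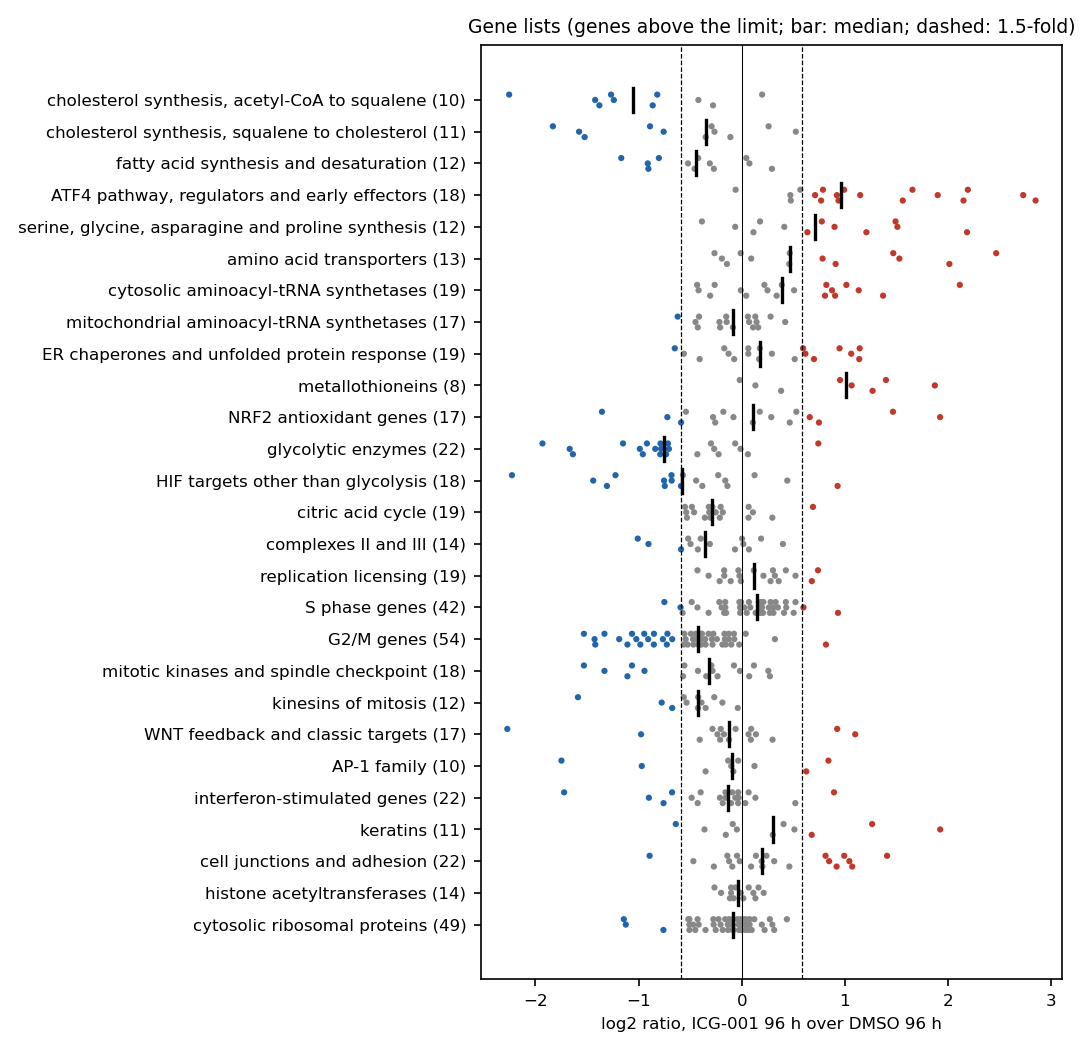
Log2 ratio of ICG-001 96 h over DMSO 96 h (horizontal axis) for the genes of 27 lists, 1 dot a gene above the detection limit, with the number of such genes in brackets and the list median as a black bar. Red and blue dots lie outside 1.5-fold (dashed lines), and most of the red dots beyond 2 on this scale belong to the ATF4 and amino acid lists.

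The WNT target, receptor and cofactor lists had medians near 0 at 96 h, while single targets moved in both directions. Of 17 feedback and classic targets above the limit 2 rose and 2 fell (median -0.12), where 5.15% of all genes rose and 5.13% fell. AXIN2, the feedback gene most often used to read WNT output, read 766 and 643 in DMSO and 249 and 617 in ICG-001, so its log2 ratio was -1.62 at 12 h and -0.06 at 96 h. AXIN2 had thus fallen at 12 h and lay near DMSO at 96 h. MYC read 3267 and 4308 in DMSO and 4164 and 2190.2 in ICG-001, so it was above DMSO at 12 h (0.35) and 1.97-fold lower at 96 h. DKK1 was close to DMSO at 12 h, with 3602 in ICG-001 12 h against 3689.7 in DMSO 12 h. The targets that rose were CCND1 and BAMBI, a decoy receptor of the TGF-β family (1276 to 2424). Of 17 genes for β-catenin, TCF/LEF factors and cofactors 2 fell. TCF7L2, the TCF factor of colon cells, read 596 and 800.3 in DMSO, 271 and 317 in ICG-001 and 410.2 in C646 96 h. CTNNB1 read 547 in DMSO 96 h and 354 in ICG-001 96 h (1.54-fold lower). Among 20 receptors and ligands FZD6 rose 1.80-fold and FZD2 fell 1.51-fold. In the MYC network MLXIPL, the glucose-sensing factor ChREBP, rose 1.83-fold and MXD4, an antagonist of MYC, fell 1.56-fold. The TCF/LEF letters CTTTGAT were in 0 of 9 promoters of measured WNT targets and in 2.75% of all genes.

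Genes for CBP and other acetyltransferases had ratios near 1. None of 14 histone acetyltransferase genes rose or fell, with log2 ratios from -0.26 to 0.21, 0.16 for CREBBP and -0.08 for EP300. Over all genes 10.3% changed, so a list of 14 may well hold no change. Of 14 deacetylases HDAC4 rose (1.61-fold). Among 14 genes whose proteins bind CBP or p300, CITED2, which competes with HIF for CBP, fell from 1269.9 to 674 and STAT3, a cytokine-driven factor, from 647 to 359.

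The AP-1 family and ERK output genes moved in both directions. FOS read 331 and 652 in DMSO and 356 and 194 in ICG-001, and JUNB, another AP-1 factor, fell 1.96-fold. JUN (594 to 917) and FOSL1 (361 to 647) rose. The ICG-001 96 h signals of JUN and FOSL1 were 1.5-fold above all 4 HCT116 columns without ICG-001. EGR1, an early growth response factor, read 1361 and 2554 in DMSO and 1738 and 802 in ICG-001. SPRY1, a brake on ERK signaling, fell 1.97-fold, and IER3 rose 1.82-fold. FOS and EGR1 were among the genes that had climbed in DMSO, and against DMSO 12 h their log2 ratios were -0.77 and -0.76. The EGF receptor ligands HBEGF (326 to 839.5) and TGFA (705 to 1096) rose. Of 14 YAP and TEAD genes the cell surface enzyme NT5E (605 to 2168), tissue factor F3 (387 to 1021) and the receptor kinase AXL (404 to 995) rose, and 0 fell, with a list median of -0.03. Of 13 genes of the TGF-β list 1 rose, while ID2 (2.37-fold) and ID3 (1.67-fold), which block helix-loop-helix factors, and BMP4 (1.51-fold) fell. Of 22 interferon-stimulated genes IFI6 (1165 to 353), IFITM3, ISG20 and IFIT1 fell and IRF1 rose 1.86-fold. Among 16 NF-kB genes LCN2, IER3 and IL8 (now CXCL8, 1.51-fold) rose, and the median was 0.19.

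Junction and adhesion genes rose in part, and intestinal genes had ratios nearer to 1. None of 10 intestinal differentiation genes above the limit, of 30 listed, rose or fell, and CDX2 had a log2 ratio of 0.22. Over all genes 10.3% changed, so a list this short may well hold no change. Among 6 mucin and secretory genes above the limit of 26 listed, FCGBP, a mucus protein, rose from 167 to 299 beside LCN2 and GCNT3. Of 22 junction and adhesion genes 7 rose, where 5.15% of all genes rose. All 7 were 1.5-fold above the 4 HCT116 columns without ICG-001, as were 285 of all 878 genes that rose. The 7 include laminin chains, which are part of the basement membrane. LAMB3 read 239.9 in DMSO 96 h and 478 in ICG-001 96 h, and LAMA3, under the limit in DMSO, rose at least 1.87-fold. ITGB4, an integrin chain that holds laminin, read 435 in DMSO 96 h and 896 in ICG-001 96 h, after 304 in ICG-001 12 h. The tight junction gene CLDN7 rose 2.10-fold, ITGA3 1.80-fold and ITGB1 1.76-fold, and JUP, plakoglobin, fell 1.86-fold. Of 11 keratins KRT80 (171 to 647) and KRT7 (at least 2.34-fold) rose, KRT81 went from 133 to 214 with a bound of 1.49-fold, and KRT23 fell 1.56-fold. S100P, a calcium-binding protein, was the single rise among 10 S100 genes (at least 1.56-fold). ALDH1A3, an aldehyde dehydrogenase, was the single change among 9 stem cell markers (1.51-fold higher). None of 6 mesenchymal genes above the limit changed.

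Families picked after their largest members were seen are described only. Of 8 kallikreins above the limit KLK6, KLK7, KLK10 (157 to 308) and KLK8 (at least 1.52-fold) rose and none fell. Of 13 serpins 4 rose, among them SERPINH1 (2.22-fold), SERPINE2 (1.84-fold) and SERPINA3 (1.57-fold). Embryonic and fetal globins fell, HBE1 from 2919 to 1185, HBG2 from 699 to 266 and HBG1 from 587 to 255. HBG1 and HBG2 are near-identical, and their signals are not separate evidence. These globins were dimmer in DMSO 12 h than in DMSO 96 h. Against DMSO 12 h the log2 ratios were -0.71 for HBE1, -0.83 for HBG2 and -0.79 for HBG1. No globin lay 1.5-fold below all 4 HCT116 columns without ICG-001. Of 152 small nucleolar and Cajal body RNAs 22 fell and 3 rose, with a median of -0.17, where 5.13% of all genes fell. SNORA12 fell most of these RNAs, from 2740.4 to 752. The rises were SNORD3A, SNORD3C and SNORD3D, copies of U3, and a labelling that starts from poly(A) tails reads such RNAs indirectly.

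Respiratory chain genes fell in part, while complex I and protein synthesis genes had medians nearer to 0. Of 14 genes of respiratory complexes II and III UQCRB (1125 to 559), UQCRC2 (2395 to 1280.3) and SDHD fell (median -0.35, and -0.35 at 12 h). Over all genes 5.13% fell. Of 15 ATP synthase genes 4 fell, with log2 ratios of -0.76 to -0.59, and of 10 complex IV genes COX7B and COX6C fell 1.86-fold and 1.72-fold. No gene of these 3 lists rose, and the medians of ATP synthase and complex IV were -0.17 and -0.15 at 96 h and -0.31 and -0.23 at 12 h. Complex I had a median of 0.00, with NDUFA6 (1.92-fold) and NDUFS8 (1.55-fold) higher and NDUFC1 (1.59-fold) lower. The citric acid cycle had a median of -0.28, and of its 19 genes IDH1 alone changed (1.61-fold higher). Of 49 cytosolic ribosomal protein genes RPS21, RPL29 and RPL7 fell (median -0.09), near the share of 5.13% over all genes. Pseudogene copies can add to such probes. Mitochondrial ribosomal proteins had a median of -0.12, with MRPS16 (1.75-fold), MRPL17 and MRPS10 higher and MRPS6 lower. Initiation factors had a median of -0.12, with EIF6 and EIF1 higher (1.96-fold and 1.72-fold) and EIF4B and EIF5A lower (1.83-fold and 1.61-fold). The proteasome had a median of 0.10 (-0.20 against DMSO 12 h), and PSMB7 was its single change (1.55-fold higher). Among 23 MYC targets in ribosome making NCL, nucleolin, fell from 4270.2 to 2405 with WDR43 and NOLC1, and ODC1, the first enzyme of polyamine synthesis, rose from 3812 to 6164 with MRTO4, for a median of 0.06.

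The time course was read by setting the 12-h comparison beside that at 96 h, which share no column. Of 15694 genes above the limit at both times, 5.22% were higher and 4.51% lower at 12 h. Of the genes that were higher at 96 h 409 (46.6%) were also higher at 12 h, and of those that were lower 328 (37.5%) were lower at 12 h. These percentages are over all 878 and 874 genes, including those under the limit at 12 h. Among the genes that changed at 96 h 188 rises and 227 falls had a ratio within 1.2-fold at 12 h, and 8 genes had changed 1.5-fold in the opposite direction.

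The late rises were led by TMEM16A, an older name of the chloride channel ANO1, which read 1025 in ICG-001 12 h and 2494 in ICG-001 96 h against 723 in DMSO 96 h. A separate entry named ANO1 gave 2.59-fold. GPX8, a peroxidase of the ER, rose 3.01-fold, CKAP4, an ER membrane protein, 2.87-fold and DNAJC10, an ER disulfide reductase, 2.29-fold, and each was within 1.16-fold of DMSO at 12 h. FOXQ1, a forkhead factor, went from 146 to 389.8, CALB2, the calcium buffer calretinin, from 295 to 704 and the prohormone carboxypeptidase CPE from 1418 to 3350.2. TSKU, a secreted leucine-rich protein, rose 2.38-fold. Besides DKK1, FOS, HMMR, the globins and HIST1H2BD, the late falls were AXUD1 (now CSRNP1, 2.59-fold), SCARNA14 (2.31-fold) and an entry for the microRNA host gene MIR100HG (2.30-fold).

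Of the 8 genes that turned, HSPA8 and its pseudogene HSPA8P5, which may share signal, were lower at 12 h and higher at 96 h. ISG20, an RNA exonuclease, read 346 and 751 in DMSO and ICG-001 at 12 h and 488 and 289 at 96 h. TICAM2, an adaptor of toll-like receptors, C12orf24 (now FAM216A), DHDH and ARL14EPL turned the same way, and the eighth entry matched no current gene.

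**Figure D4:**
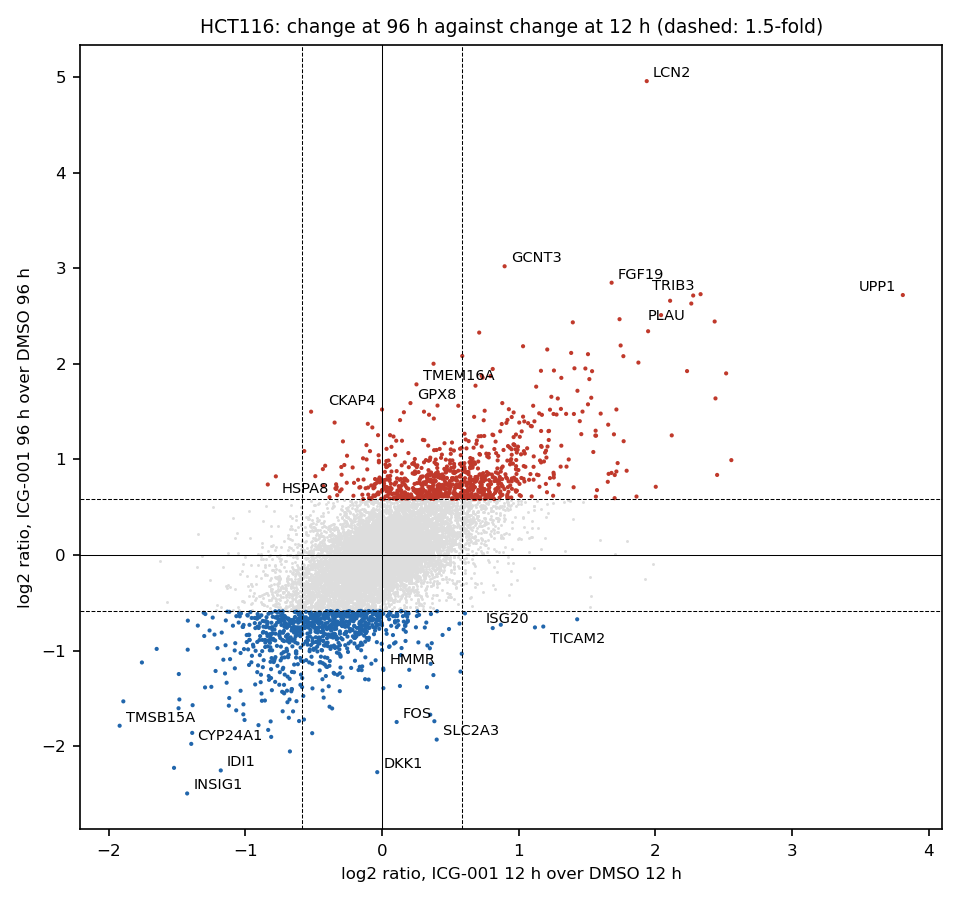
Log2 ratio of ICG-001 over DMSO at 96 h (vertical axis) against the same at 12 h (horizontal axis) for the genes above the limit at 96 h, with 1.5-fold as dashed lines. UPP1 was higher at 12 h than at 96 h, LCN2 and GCNT3 climbed, and DKK1, FOS and HMMR lie near 0 at 12 h.

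PANC1 cells after 96 h of ICG-001 against their own DMSO share no column with the HCT116 comparison. Both lines had signal above the limit for 15119 genes, of which 4.11% were higher and 3.93% lower in PANC1. Of all 878 genes higher in HCT116, including those at background in PANC1, 216 (24.6%) were higher in PANC1. Of all 874 lower genes 240 (27.5%) were lower there, while 28 genes changed in opposite directions. The medians of the sterol and amino acid lists had the same sign in both lines, each over the genes above the limit in that line. Early cholesterol enzymes had a median of -0.73 in PANC1 beside -1.05 in HCT116, late enzymes -0.84 beside -0.35, ATF4 regulators 0.74 beside 0.97 and amino acid synthesis 0.76 beside 0.71. INSIG1 had log2 ratios of -1.61 and -2.50 and TRIB3 2.10 and 2.73. G2/M genes had medians of -0.39 and -0.42. HIF targets had -0.12 beside -0.58 and metallothioneins 0.24 beside 1.01.

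Several of the largest HCT116 rises were in genes at background in PANC1. GCNT3, FGF19, KLK6, KLK7 and FERMT1 were under the limit in both PANC1 columns, and LCN2 read 135 in PANC1 DMSO and 149 in PANC1 ICG-001 at 96 h. GDF15 read 3779.5 in PANC1 DMSO and 2485 in PANC1 ICG-001 at 96 h, a log2 ratio of -0.61 against 2.19 in HCT116. IFI6 went from 786 to 1186, FOXQ1 from 1300.2 to 746, SEPT3 (now SEPTIN3, a brain septin) from 225 to 383 and HAS3, a hyaluronan synthase, from 306 to 161, each opposite in direction to HCT116. DKK1 fell in both lines, with -0.73 and -2.27. MYC had 0.18 and -0.98, TCF7L2 -0.33 and -1.34 and CTNNB1 0.06 and -0.63.

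C646, an inhibitor of the acetyltransferase activity of p300 and CBP, was read at 10 uM and 96 h against the same DMSO column, so the values share that column and are only set side by side. INSIG1 had a log2 ratio of -0.18 in C646 beside -2.50 in ICG-001 and IDI1 -0.50 beside -2.26. Of the ATF4 group TRIB3 had 0.86 beside 2.73 and SLC7A5 0.81 beside 2.47. Of the mitotic genes BUB1 had -0.02 beside -1.53 and KIF20A 0.04 beside -1.59. CDKN1A had 1.37 beside 1.12, TCF7L2 -0.96 beside -1.34 and CTNNB1 -0.63 beside -0.63. ANKRD37 lay on opposite sides of DMSO, at 0.95 in C646 and -2.23 in ICG-001.

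**Figure D5:**
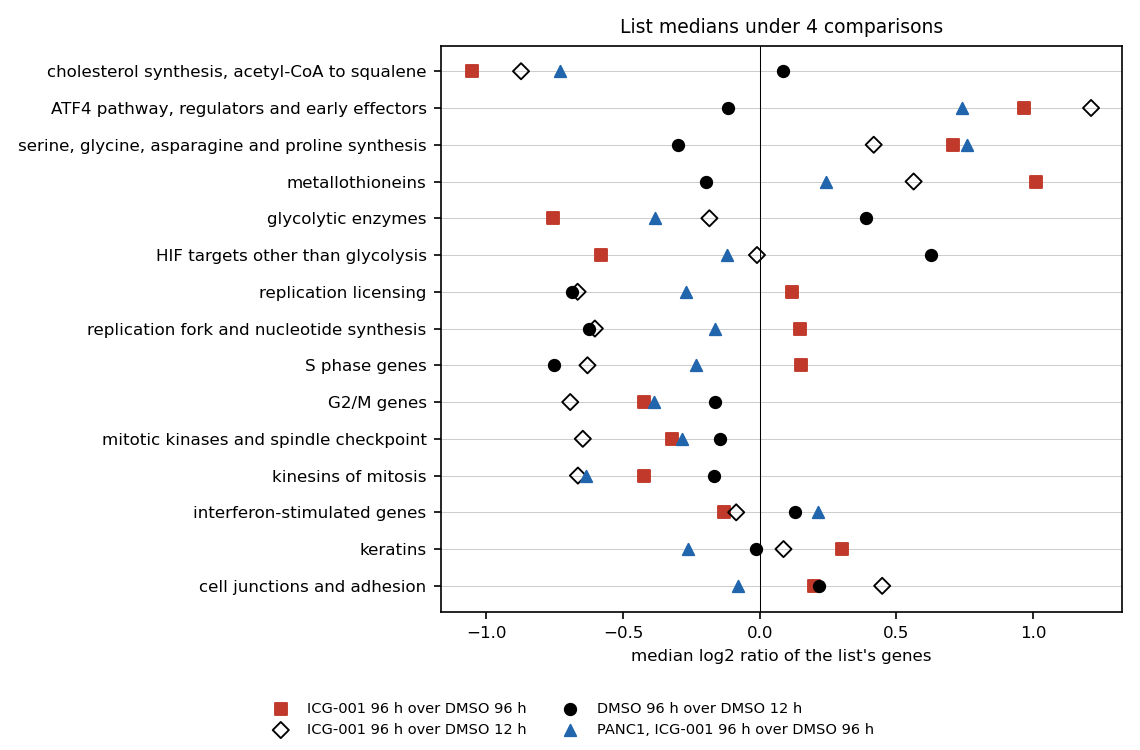
Median log2 ratio (horizontal axis) of the genes of 15 lists in 4 comparisons, each between single columns and so without error bars. ICG-001 96 h is shown over DMSO 96 h (squares) and over DMSO 12 h (diamonds), beside DMSO 96 h over DMSO 12 h (circles) and PANC1 (triangles), and the diamond of the HIF targets lies near 0 while the S phase, licensing and fork lists change sign.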

How the data were processed

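RNA from HCT116 and PANC1 cells was read on Illumina HumanHT-12 v4 arrays. The authors exported the deposited intensity values from GenomeStudio (version not given in the sources used here) after quantile normalization without background subtraction, as 1 column per group, the mean of replicate arrays. Changes are thus relative to other genes, and background left in the signal shrinks the ratios of dim genes. The genome build of the array annotation is not given in the sources used here.

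Signals were called above background past the mode of each column's log2 signals plus 2.33 SD, with the SD taken from values below that mode. The ratio of 2 columns was called at 1.5-fold. With 1 column per group there was no test. Of the gene names 17755 were current RefSeq symbols, 3305 older names of 1 gene, 144 older names of several genes and 2669 LOC names matched by gene identifier, and 10814 matched none. Names without a current gene were counted and not named.

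Members and the 71 gene lists were chosen with earlier results of these data known, and 4 lists (kallikreins, globins, small nucleolar RNAs, serpins) were added after the values were seen. Named were the 10 largest rises and falls shared with 12 h, the 10 largest within 1.2-fold at 12 h, all that turned, the 5 most opposite in PANC1, up to 6 changed members per list and genes that define a pathway. Further list members were named after their values were seen. Some genes that the rule names are not reported here. Promoters were shown for the most changed sterol and ATF4 list genes holding the motif in the 250 bases upstream of the start, passing over chromosome 8 and, by a rule added later, CEBPG. Alternatives were other fold thresholds, no limit or one at 5 SD, centring, normexp background correction with an offset of 16 (limma 3.58.1 in R 4.3.3) and another control column. The scripts (Python 3.11.15, numpy 2.4.6, pandas 2.3.3, scipy 1.17.1, matplotlib 3.10.9) were tested on simulated data.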

Additional observations from a re-analysis of the deposited data

Results flagged for a closer look

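Some genes and lists moved in opposite directions in HCT116 and PANC1 cells after 96 h of ICG-001. Each line has 1 column per group, so none of these differences was tested. The difference of log2 ratios, HCT116 minus PANC1, was 2.80 for GDF15 (2.19 in HCT116 and -0.61 in PANC1), 2.21 for FOXQ1 (1.41 and -0.80) and 2.04 for HAS3 (1.11 and -0.93). It was -2.32 for IFI6 (-1.72 and 0.59) and -2.15 for SEPT3 (-1.39 and 0.77). These genes were the 5 with the largest such difference among the 28 that changed 1.5-fold in opposite directions.

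List medians on opposite sides of 0 were taken over the genes above the limit in each line, so the genes can differ between the lines. For kallikreins, a list added after its largest HCT116 rises were seen, they were 8 genes in HCT116 and 3 in PANC1. The median was higher in HCT116 by 0.758 for kallikreins (0.58 in HCT116 and -0.18 in PANC1), by 0.564 for keratins (0.30 and -0.26) and by 0.550 for S100 proteins (0.23 and -0.32). It was higher by 0.395 for ER chaperones and the unfolded protein response (0.18 and -0.22), by 0.349 for ERK output and feedback (0.15 and -0.20) and by 0.278 for cell junctions and adhesion (0.20 and -0.08). Replication licensing differed by 0.388 (0.12 and -0.27), replication fork and nucleotide synthesis by 0.310 (0.15 and -0.16) and S phase genes by 0.385 (0.15 and -0.23). Against DMSO 12 h the HCT116 medians of these lists were -0.67, -0.60 and -0.63, with the same sign as in PANC1. In the 12-h comparison they were -0.31, -0.39 and -0.43. Interferon-stimulated genes differed by -0.342 (-0.13 in HCT116 and 0.21 in PANC1).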

How the results depend on the processing

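The counts of genes higher and lower followed the threshold and the background. At 1.2-fold 2853 genes were higher and 2955 lower, at 2-fold 190 and 178, and after normexp background correction at 1.5-fold 1860 and 1919. Of 67 list medians 67 moved by less than the SD of names under the limit when ratios were centred, 59 with the limit at 5 SD, 51 with no filter on dim genes, 41 after normexp and 20 with DMSO 12 h as the control. Among medians beyond 0.072 from 0, the sign changed with no filter for secreted WNT antagonists (0.009), keratins (-0.027) and mesenchymal genes (0.012). With DMSO 12 h as the control, an alternative chosen after seeing the data, it changed for sterol sensing (0.020), replication licensing (-0.666), replication fork (-0.603), S phase (-0.630), homologous recombination (-0.154), the MYC, MAX and MXD network (0.013), the proteasome (-0.198) and the AP-1 family (0.030). The cause was not tested. No paired analysis was possible because each group has 1 column. The averaging of the arrays leaves no measure of their spread, and a change near 1.5-fold cannot be told from that spread here.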
